A study of Mus musculus with 12 samples.

Results

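Wnt ligands are secreted lipid-modified proteins that bind Frizzled receptors and the co-receptors Lrp5 and Lrp6. In the canonical branch, binding stops the destruction complex of Axin, Apc and Gsk3 from marking beta-catenin for degradation, and beta-catenin then acts in the nucleus with transcription factors of the TCF/LEF family on target genes. Mouse embryonic stem cells make and respond to Wnt signals, which help to hold them in self-renewal, and the same pathway later acts in primitive streak and mesoderm formation. The genes described here were 6 Wnt ligands (Wnt3, Wnt3a, Wnt4, Wnt6, Wnt7b and Wnt9a), 3 genes widely used as readouts of canonical signalling (Axin2, Sp5 and Dkk1) and the nuclear factor Lef1. They were chosen by symbol, with earlier results of these data known, and all 10 were found among the 22753 genes of the count table. All 10 also passed the filter on low counts, as 15179 genes did.

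RNA was sequenced from mouse embryonic stem cells labelled as carrying floxed Sphk1 and as null for Sphk2 (Sphk1fl/fl Sphk2-/-). Sphk1 and Sphk2 encode the kinases that make sphingosine 1-phosphate. Cells of clones 4 and 10 were kept in serum with LIF, were treated for 48 hours with (Z)-4-hydroxytamoxifen at 6 uM and were sorted by Cre-GFP into GFP-negative cells, labelled Sphk1fl/fl Sphk2-/-, and GFP-positive cells, labelled Sphk1-/- Sphk2-/-, with 3 libraries in each of the 4 groups. Every group, the GFP-negative controls included, was thus labelled Sphk2-/- and had been exposed to the drug, so the gate contrast is, by its labels, that of Sphk1 loss on a Sphk2-null background. Each line is 1 clone, the driver of Cre-GFP is not named in the labels, and the labels do not say whether replicates were separate cultures, so the p-values reflect variation among libraries that may in part be technical.

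Libraries held 12968916 (clone 10 GFP-negative replicate 1) to 34258395 counts. All 9 embryonic stem cell markers (Pou5f1, Sox2, Nanog and others) were detected, and their summed level was 5034 to 10817 CPM (the count scaled by the library's total) across libraries. Sphk1, the targeted gene, lay between 0.694 and 4.30 CPM and did not separate the gates, with a log2 change in GFP-positive cells of -0.61 (SE 0.25, edgeR within pairs, adjusted p = 0.166) for the mean of both clones. Sphk2, labelled null in every group, held 1.19 to 8.34 CPM, and its group means of 3.49 to 6.50 CPM were above those of Sphk1, at 1.26 to 2.25 CPM. A gene total can also count exons outside a deleted part, so these levels are a weak check of the labels, and genotypes are given here as labelled. Within a clone, same-numbered GFP-positive and GFP-negative libraries deviated together. Gate contrasts were therefore fitted over all 12 libraries, the planned fit, and, as an alternative, within pairs, where each pair is a block. In these Results log2 changes between gates, and medians of them, are from the fit within pairs unless another source is named.

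The Wnt ligands were expressed at low levels. Per kilobase of exon, median levels over the 12 libraries were 2.35 CPM for Wnt9a, 2.07 for Wnt7b, 1.99 for Wnt6, 1.04 for Wnt3, 0.926 for Wnt3a and 0.503 for Wnt4. Between 16.4% (Wnt4) and 36.5% (Wnt9a) of 15081 tested genes with a known exon length had lower values, so all 6 ligands were below the middle of the expressed genes. Axin2 was the highest of the 10 on this scale at 7.36 CPM per kilobase, above 59.1% of genes, and Dkk1 the lowest at 0.0717, above 2.24%. Sp5 stood at 1.47 and Lef1 at 0.491 CPM per kilobase.

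**Figure D1:**
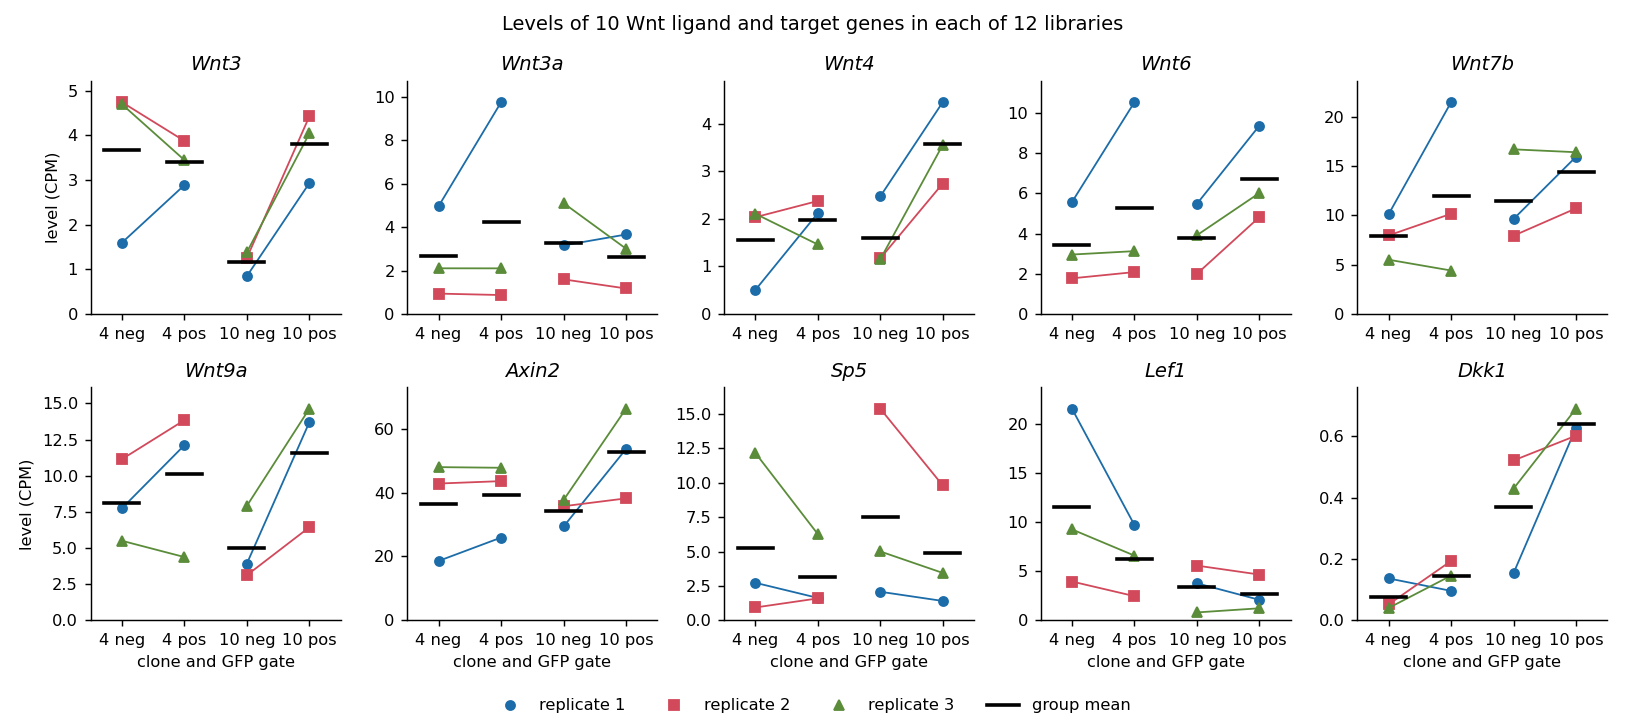
Level of each of the 10 genes in CPM (count over library total, linear axis from 0) in the 4 groups, with a symbol per replicate, lines joining the GFP-negative and GFP-positive libraries of a pair, and a bar at the group mean. Only Wnt3, Wnt4, Axin2 and Dkk1 have clone 10 groups that do not overlap, with the GFP-positive libraries higher, and no gene has clone 4 groups that do not overlap; on effective library sizes the Wnt4 groups overlap.

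Wnt3, a canonical ligand needed for primitive streak formation in the mouse embryo, was about 3-fold higher in the GFP-positive cells of clone 10 and not detectably different in clone 4. The gene (ENSMUSG00000000125) lies at chr11:103774150-103817957 on the plus strand of mm10. In clone 10, GFP-negative replicates 1, 2 and 3 held 0.848, 1.26 and 1.38 CPM, and GFP-positive replicates held 2.93, 4.43 and 4.04 CPM. The clone 10 groups did not overlap, and within each pair the GFP-positive library was higher, by CPM ratios of 3.45, 3.52 and 2.92. On log2 CPM scaled by effective library sizes (TMM), these differences were 1.41, 1.73 and 1.46. All 3 clone 10 pairs were higher for 31.0% of tested genes. In clone 4, the GFP-negative libraries held 1.60, 4.74 and 4.69 CPM and the GFP-positive ones 2.88, 3.87 and 3.44 CPM, which overlapped, with ratios of 1.81, 0.817 and 0.734. Group means were 1.16 ± 0.280 and 3.80 ± 0.777 CPM in clone 10 (GFP-negative, then GFP-positive) and 3.68 ± 1.80 and 3.40 ± 0.496 CPM in clone 4 (SD, n = 3 each). The clone 10 GFP-negative group was therefore the low one, and the remaining 3 groups overlapped with each other.

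Within pairs, Wnt3 rose in clone 10 by 1.61 on the log2 scale (SE 0.30, 95% interval 0.93 to 2.29, a 3.06-fold change, edgeR adjusted p = 0.0223). In the fit over all libraries the log2 change was of the same size, 1.60 (SE 0.45), and edgeR did not call it (adjusted p = 0.243), whereas DESeq2 on the same libraries did (adjusted p = 0.0324). In clone 4 the change within pairs was 0.01 (SE 0.27, 95% interval -0.60 to 0.63, edgeR adjusted p = 0.992). The difference between the clones' changes was itself 1.60 (SE 0.41, unadjusted p = 0.0036) within pairs and was not called after adjustment over all genes (edgeR adjusted p = 0.528). The authors' deposited table gave Wnt3 a log2 fold change of 1.29 (adjusted p = 0.00347) in clone 10 and -0.05 (adjusted p = 1.00) in clone 4, with 2.7% and 0.0599% of its genes past an adjusted p of 0.05. Leaving out each of the 6 pairs in turn gave clone 10 adjusted p-values of 0.0145 to 0.135, with the call lost without clone 10 replicate 2 or replicate 3.

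Wnt9a encodes a ligand studied mainly in skeletal, joint and blood development. It was also higher in the GFP-positive cells of clone 10, by about 2-fold. The gene (ENSMUSG00000000126, chr11:59306928-59333552, plus strand) held 3.93, 3.13 and 7.92 CPM in the clone 10 GFP-negative replicates and 13.7, 6.44 and 14.6 CPM in the GFP-positive ones. These ranges overlapped because replicate 3 was high in GFP-negative cells and replicate 2 low in GFP-positive cells. Every pair was nevertheless higher in GFP-positive cells, by CPM ratios of 3.49, 2.06 and 1.85. On log2 CPM scaled by effective library sizes, these differences were 1.48, 1.00 and 0.85. Clone 4 libraries held 7.75, 11.1 and 5.50 CPM without and 12.1, 13.8 and 4.38 CPM with GFP, with ratios of 1.56, 1.24 and 0.796. Within pairs, Wnt9a rose in clone 10 by 1.11 on the log2 scale (SE 0.22, 95% interval 0.61 to 1.61, a 2.15-fold change, edgeR adjusted p = 0.0289). Over all libraries the change was 1.11 (SE 0.48) and was not called (edgeR adjusted p = 0.610), and the authors' deposited table gave 0.85 with an adjusted p of 0.272. The clone 4 change within pairs was 0.23 (SE 0.21, edgeR adjusted p = 0.760), and the difference between the clones, 0.87 (SE 0.31), was not called (edgeR adjusted p = 0.600). With a pair left out in turn the adjusted p for clone 10 ran from 0.0393 to 0.122, and the call was lost without clone 10 replicate 2, clone 10 replicate 3 or clone 4 replicate 2, which enters through the shared estimate of spread.

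Wnt3 and Wnt9a were 2 of 10 genes called in clone 10 within pairs, where 4.22% of all tested genes were called and 3.49% were called as higher. At an unadjusted p under 0.05 it was 6 of 10, against 25.2% of all genes. In clone 4, 0 of 10 were called within pairs by edgeR, against 0.119% of all genes, with 1 of the 10 (Lef1) at an unadjusted p under 0.05, against 7.42% of all genes, and 0 called by DESeq2 within pairs (1.2% of all genes). In clone 10 DESeq2 within pairs called the same 2 genes, and 10.8% of all genes. In the fit over all libraries edgeR called 0 of 10 in either clone, where it called 0.0% of all genes in each, and 2 of the 10 had an unadjusted p under 0.05 in clone 10 (7.45% of all genes) and 0 in clone 4 (1.38%). DESeq2 over all libraries called 1 of 10 (Wnt3) in clone 10, where it called 1.91% of all genes, and 0 in clone 4, where it called 0.236%. Because the 10 genes were chosen with earlier results of these data known, these shares describe the list and do not test it. In bulk samples a change in RNA per cell and a change in the share of cells that make it cannot be told apart.

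Other marker genes moved with the same gate. The summed level of 9 two-cell-like markers (the Zscan4 cluster, Zfp352 and others) was 62.5 to 153 CPM in clone 10 GFP-negative libraries and 655 to 3149 CPM in GFP-positive ones, and in clone 4 it was 3.54 to 13.9 and 21.5 to 214 CPM. All 9 were detected in at least 9 of 12 libraries. Across clone 10 GFP-positive replicates 1, 2 and 3 the sum was 3149, 655 and 2099 CPM. Among the 10 genes, Wnt9a (13.7, 6.44 and 14.6 CPM), Wnt3a, Wnt4, Wnt6, Wnt7b, Axin2 and Dkk1 were lowest in replicate 2 as well. Wnt3 (2.93, 4.43 and 4.04 CPM), Lef1 and Sp5 were highest there. In GFP-negative cells of clone 10, Wnt9a was lowest in replicate 2 too (3.13 CPM), while the two-cell-like sum was lowest in replicate 3 (62.5 CPM). The summed level of 11 fibroblast (feeder) markers was 168, 325 and 872 CPM in clone 10 GFP-negative libraries and 167, 184 and 468 CPM in GFP-positive ones, and 244, 555 and 372 against 117, 232 and 122 CPM in clone 4. The part of either cell state in the Wnt3 and Wnt9a results was not tested. In 5 of 6 pairs the GFP-positive library was also labelled 1 passage later than its partner. The smallest library, clone 10 GFP-negative replicate 1, also stood apart in its share of mitochondrial counts (0.143%, against 0.849% in its GFP-positive partner) and in the share of its 10 most abundant genes (7.39%, against 4.23% to 5.22% in the other libraries). Without this pair, the clone 10 change within pairs was 1.66 for Wnt3 (edgeR adjusted p = 0.0237) and 0.93 for Wnt9a (edgeR adjusted p = 0.04996).

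The promoters of Wnt3 and Wnt9a, the 2 called genes, and of Axin2 and Sp5, the 2 readouts of canonical signalling with most counts, are given here because the pathway acts through TCF/LEF factors at such regions. Each run spans 250 bases before to 50 bases after a transcription start, 5′ to 3′ on the gene's own strand, from RefSeq on GRCm38.p6: chr11:103773925-103774224 (Wnt3, plus), chr11:59306680-59306979 (Wnt9a, plus), chr11:108920099-108920398 (Axin2, plus) and chr2:70474673-70474972 (Sp5, plus). Capitals mark forms of the TCF/LEF core, searched on both strands: CTTTGAT (which reads as ATCAAAG on the other strand), CTTTGAA (which reads as TTCAAAG there), CTTTGTA (which reads as TACAAAG there) and CTTTGTT (which reads as AACAAAG there).
Wnt3: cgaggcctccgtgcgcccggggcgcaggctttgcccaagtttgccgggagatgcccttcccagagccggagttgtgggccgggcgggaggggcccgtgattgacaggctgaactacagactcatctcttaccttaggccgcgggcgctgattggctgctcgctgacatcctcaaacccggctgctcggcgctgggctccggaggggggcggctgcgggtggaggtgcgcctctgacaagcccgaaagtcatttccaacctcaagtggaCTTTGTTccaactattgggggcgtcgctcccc
Wnt9a: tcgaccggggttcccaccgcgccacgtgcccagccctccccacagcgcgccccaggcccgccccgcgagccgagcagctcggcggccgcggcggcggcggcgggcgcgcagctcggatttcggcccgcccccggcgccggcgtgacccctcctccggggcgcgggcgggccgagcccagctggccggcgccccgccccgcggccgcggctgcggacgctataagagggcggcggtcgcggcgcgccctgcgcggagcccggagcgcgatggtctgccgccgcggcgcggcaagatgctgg
Axin2: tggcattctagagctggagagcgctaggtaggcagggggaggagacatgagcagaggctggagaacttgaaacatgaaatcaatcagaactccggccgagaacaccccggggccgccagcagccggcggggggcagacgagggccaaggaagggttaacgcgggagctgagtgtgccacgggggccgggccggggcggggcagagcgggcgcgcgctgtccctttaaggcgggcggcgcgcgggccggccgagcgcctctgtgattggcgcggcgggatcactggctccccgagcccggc
Sp5: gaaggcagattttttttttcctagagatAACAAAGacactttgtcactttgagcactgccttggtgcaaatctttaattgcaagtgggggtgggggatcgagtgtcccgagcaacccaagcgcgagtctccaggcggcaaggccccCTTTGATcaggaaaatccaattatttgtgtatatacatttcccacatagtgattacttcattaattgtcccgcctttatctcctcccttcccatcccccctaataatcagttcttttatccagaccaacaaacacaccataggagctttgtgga

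Sp5 held 2 matches, AACAAAG starting at -222 and CTTTGAT at -104 from the start site, and Wnt3 held CTTTGTT at 19 bases after it. No match was found in the Axin2 and Wnt9a windows, which were 70.0% and 83.3% G and C. RefSeq windows were found for 9 of the 10 genes (Wnt7b had none), 12 windows in all. Matches stood in 4 of the 12, namely in those of Sp5, Wnt3 and Dkk1 and in 1 of the 4 starts of Lef1, against 16.9% of 32851 windows of the same length over all genes. A match describes letters and is not evidence of binding.

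Wnt6 and Wnt4 leaned towards GFP-positive cells without passing the test. Wnt6 (ENSMUSG00000033227, chr1:74771892-74785319, plus strand) was the single gene of the 10 with a higher GFP-positive CPM in all 6 pairs, as 8.29% of all genes had, with ratios of 1.89, 1.18 and 1.06 in clone 4 and 1.71, 2.42 and 1.54 in clone 10. On log2 CPM scaled by effective library sizes (TMM), Wnt6 and Axin2 were both higher in 6 of 6 pairs, as 8.71% of all genes were. Its group means were 3.43 ± 1.94 and 5.24 ± 4.61 CPM in clone 4 and 3.79 ± 1.74 and 6.73 ± 2.36 CPM in clone 10 (GFP-negative, then GFP-positive, SD, n = 3), and all groups overlapped. Its log2 change within pairs was 0.61 (SE 0.17, edgeR adjusted p = 0.0954) for the mean of both clones, a value that DESeq2 within pairs called (adjusted p = 0.0417). Wnt4 (ENSMUSG00000036856, chr4:137277489-137299726, plus strand), a ligand of kidney and gonad development, held 2.47, 1.17 and 1.15 CPM in clone 10 GFP-negative replicates and 4.45, 2.74 and 3.55 CPM in GFP-positive ones. These clone 10 groups did not overlap in CPM but did on effective library sizes, where GFP-negative replicate 1 lay above GFP-positive replicate 2, and the change within pairs was 1.11 (SE 0.42, edgeR adjusted p = 0.157). In clone 4 the Wnt4 values overlapped, at 0.501, 2.03 and 2.10 CPM without and 2.12, 2.37 and 1.46 CPM with GFP, and the GFP-positive cells of clone 10 also lay wholly above those of clone 4.

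Wnt7b and Wnt3a varied more between pairs than between gates. Wnt7b (ENSMUSG00000022382, chr15:85535439-85581821, minus strand) ranged from 4.41 to 21.5 CPM, both in clone 4 GFP-positive cells, and its log2 changes within pairs were 0.41 in clone 4 and 0.25 in clone 10 (SE 0.24, edgeR adjusted p = 0.508). Wnt3a (ENSMUSG00000009900, chr11:59248033-59290752, minus strand), the canonical ligand most used to activate the pathway in culture, held 4.97 and 9.76 CPM in the replicate 1 pair of clone 4 but 0.938 and 0.871 CPM in the replicate 2 pair (GFP-negative, then GFP-positive). Its change within pairs was -0.46 (SE 0.28, edgeR adjusted p = 0.317) in clone 10 and 0.38 in clone 4, and it was the single ligand of the 6 whose clone 10 value was below 0. Wnt3a and Wnt9a are neighbours, 16.2 kilobases apart on opposite strands. In clone 10 their ratios of GFP-positive to GFP-negative CPM were 1.16, 0.736 and 0.589 for Wnt3a against 3.49, 2.06 and 1.85 for Wnt9a. On effective library sizes the log2 difference in the replicate 1 pair was -0.09 for Wnt3a, of the other sign, and 1.48 for Wnt9a.

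Over the 6 ligands, the median log2 change within pairs was 0.94 in clone 10, with 5 of 6 above 0, and 0.39 in clone 4, with 6 of 6 above 0. The median over all tested genes was -0.01 in clone 10 and 0.00 in clone 4. For Axin2, Lef1, Dkk1 and Sp5 together the medians were 0.05 and -0.13. The ligands of the list thus had positive medians while the targets and Lef1 were split in sign, and no test of the lists was made. For the mean of both clones, 0 of 10 genes were called by edgeR in either fit, where 0.158% of genes were called over all libraries and 3.36% within pairs. At an unadjusted p under 0.05 there were 1 and 7 of the 10 (6.77% and 26.3% of all genes), and DESeq2 called 0 over all libraries, against 1.89% of all genes, and 3 within pairs (Wnt3, Wnt6 and Wnt9a), against 9.45%. Without clone 10 replicate 1, edgeR within pairs called Wnt3 and Wnt9a for this mean (adjusted p = 0.0464 and 0.0435). These means use the same libraries as the changes per clone and are not further evidence.

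**Figure D2:**
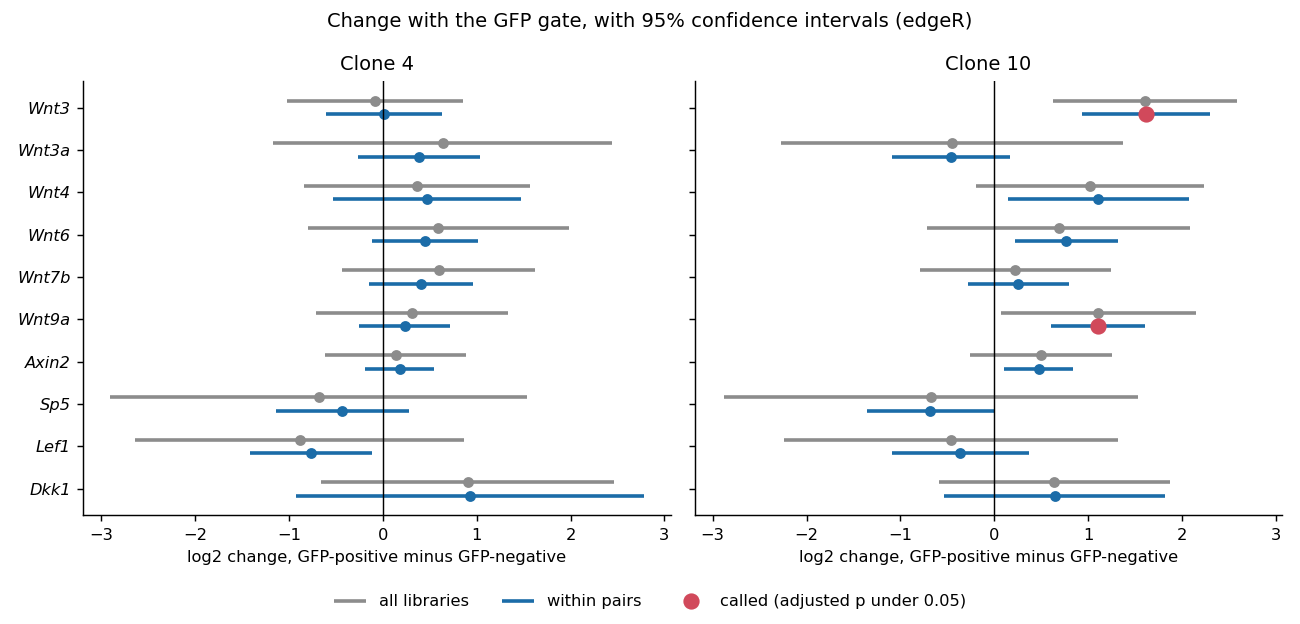
Log2 change of each gene, GFP-positive minus GFP-negative, in clone 4 (left) and clone 10 (right) from edgeR over all libraries (grey) and within pairs (blue), with lines for the 95% interval and red points for called values. Wnt3 at 1.61 and Wnt9a at 1.11 in clone 10 are the called values, while the clone 4 values of these genes within pairs, 0.01 and 0.23, have intervals that include 0.

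Axin2, a scaffold of the destruction complex that canonical signalling induces as a feedback inhibitor, was the most abundant of the 10 genes, and its difference between the gates did not pass the test in either clone. It lies at chr11:108920349-108950783 on the plus strand (ENSMUSG00000000142), and its promoter is printed above. Clone 10 GFP-negative replicates held 29.4, 35.7 and 37.7 CPM and GFP-positive replicates 53.6, 38.2 and 66.3 CPM, so the groups did not overlap, by the narrow margin of 38.2 against 37.7 CPM. Clone 4 libraries held 18.6, 42.8 and 48.0 CPM without and 25.9, 43.6 and 47.8 CPM with GFP, nearly equal in replicates 2 and 3. The log2 change within pairs was 0.47 in clone 10 (SE 0.16, 95% interval 0.10 to 0.84, edgeR adjusted p = 0.131) and 0.18 in clone 4 (SE 0.16, edgeR adjusted p = 0.760). Neither passed the test.

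Sp5, a zinc-finger factor that is a direct target of beta-catenin, had the opposite sign to Axin2. The gene (ENSMUSG00000075304) lies at chr2:70474923-70477729 on the plus strand. In clone 10 the GFP-negative replicates held 2.08, 15.4 and 5.01 CPM and the GFP-positive replicates 1.41, 9.81 and 3.45 CPM, so that replicate 2 was high in both gates and each pair was lower in GFP-positive cells, by near-equal ratios of 0.679, 0.638 and 0.688. In clone 4 the values were 2.74, 0.938 and 12.2 CPM without and 1.63, 1.60 and 6.28 CPM with GFP, with ratios of 0.598, 1.70 and 0.515. The change within pairs was -0.68 in clone 10 (SE 0.30, 95% interval -1.36 to -0.01, edgeR adjusted p = 0.196) and -0.43 in clone 4 (SE 0.31, edgeR adjusted p = 0.720), neither of which was called. Sp5 thus had a lower GFP-positive level in 5 of 6 pairs (as 21.7% of genes were, in at least 5) while Axin2 was higher in 5 of 6 (as 23.4% of genes were, in at least 5), or in 6 of 6 on effective library sizes.

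Lef1, the TCF/LEF factor that is itself a target of the pathway, differed most between pairs. The gene (ENSMUSG00000027985, chr3:131110471-131224356, plus strand) held 21.6, 3.96 and 9.27 CPM in clone 4 GFP-negative replicates and 9.71, 2.47 and 6.60 CPM in GFP-positive ones, lower in all 3 pairs by ratios of 0.450, 0.624 and 0.712. The clone 4 change within pairs was -0.77 (SE 0.29, 95% interval -1.42 to -0.11, edgeR adjusted p = 0.612), not called. In clone 10 the values were 3.78, 5.58 and 0.812 CPM without and 2.09, 4.67 and 1.23 CPM with GFP, and the change was -0.36 (SE 0.32, edgeR adjusted p = 0.488).

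Dkk1, a secreted inhibitor that binds the Lrp co-receptors and is induced by the pathway, was barely expressed, with 1 to 20 counts per library. The gene (ENSMUSG00000024868) lies at chr19:30545863-30549665 on the minus strand. Clone 4 held 0.137, 0.0521 and 0.0405 CPM in GFP-negative and 0.0962, 0.194 and 0.146 CPM in GFP-positive libraries, and clone 10 held 0.154, 0.521 and 0.430 and then 0.628, 0.602 and 0.690 CPM. All clone 10 libraries of a gate lay above those of clone 4. In GFP-negative cells the margin was 0.154 against 0.137 CPM, from 2 counts in clone 10 replicate 1 and 3 in clone 4 replicate 1. That order thus rests on library size. Between gates, the change within pairs was 0.64 (SE 0.52, edgeR adjusted p = 0.445) in clone 10, where the groups did not overlap. Counts this low leave wide errors.

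Of the 10 genes, 4 had clone 10 groups that did not overlap in CPM, all higher in GFP-positive cells (Wnt3, Wnt4, Axin2 and Dkk1), as did 10.9% of all tested genes in that direction, 3.59% in the other and 14.5% in either. On effective library sizes it was 3 (without Wnt4), against 9.39% of all genes in that direction and 15.0% in either. In clone 4 it was 0 of 10 on both scales, against 3.65% of all genes in CPM and 3.75% on effective sizes. The gate by clone contrast called 0 of 10 genes in either edgeR fit, where 0.0% of all genes were called, with 1 over all libraries (Wnt3, 0.922% of all genes) and 2 within pairs (Wnt3 and Wnt9a, 7.69%) at an unadjusted p under 0.05. DESeq2 also called 0 of 10 in either fit, against 0.0% and 0.467% of all genes. The clones were therefore not shown to differ in their response for any of the 10 genes after adjustment.

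The range over pairs, which span both clones, was larger than the largest difference within a pair for most of these genes. Medians over all tested genes had the same order, with log2 values of 1.18 over pairs and 0.77 for the largest difference within a pair. On normalized log2 CPM, which also corrects for the effective library size, the mean level of Lef1 in the highest pair (clone 4 replicate 1) was 13.3 times that of the lowest (clone 10 replicate 3), while the largest difference within a pair was 2.31-fold, and 2.52% of genes had a wider range over pairs. Sp5 spanned 10.7-fold over pairs, from clone 4 replicate 2 to clone 10 replicate 2, and at most 1.81-fold within a pair. Wnt3a spanned 7.26-fold over pairs, a range that 6.80% of genes exceeded. Axin2 and Wnt3 spanned 2.29-fold each, close to the median gene at 2.27-fold, and Wnt3, Wnt4 and Wnt9a were the genes with a larger difference within some pair than between pairs. The share of mitochondrial counts also differed between pairs: it was 2.11% and 2.32% in the clone 10 replicate 2 pair, where Sp5 was highest, and 1.43% and 2.21% in the clone 4 replicate 3 pair, where Sp5 was next highest. It was 0.845% and 0.896% in the clone 4 replicate 2 pair, where Sp5 was lowest, but lower still in clone 4 replicate 1 (0.594% and 0.851%) and in GFP-negative clone 10 replicate 1 (0.143%), so the orders of the 2 measures differed, and its part in the Sp5 levels was not tested.

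**Figure D3:**
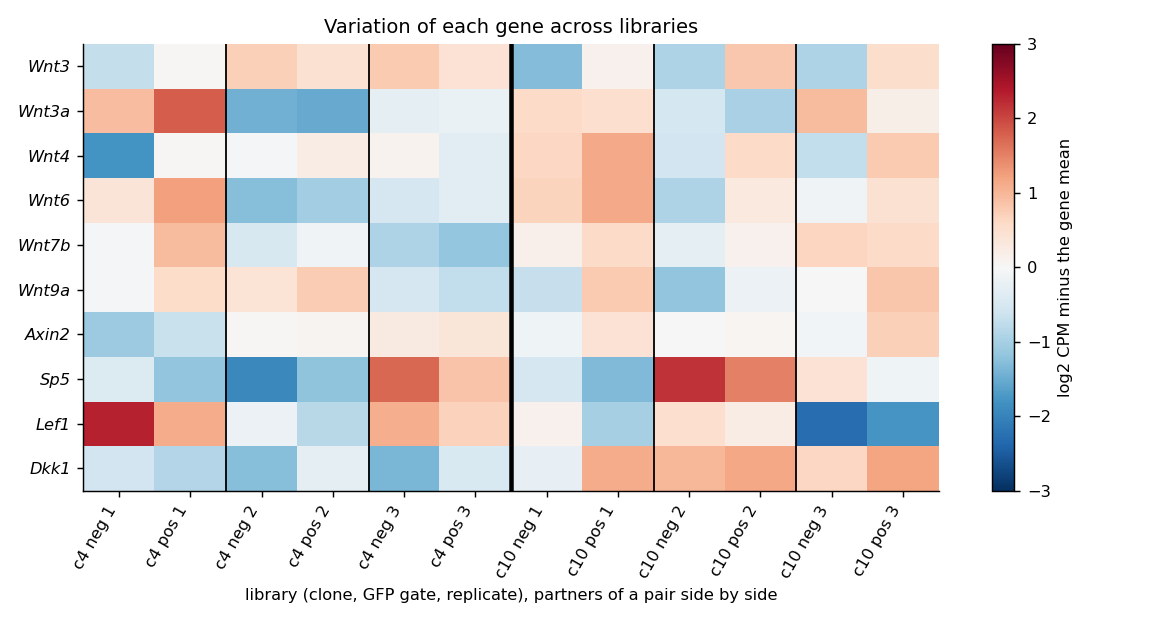
Heat map of log2 CPM of each gene (rows) in each library (columns), minus the gene's own mean over the 12 libraries, with red above and blue below that mean and the libraries of a pair side by side (c4 and c10 are the clones, neg and pos the GFP gates). Lef1 and Sp5 show pairs that are high or low in both gates, and Wnt3 is low in the 3 clone 10 GFP-negative libraries.

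Across the 12 libraries, Axin2 and Sp5 did not vary together (Pearson r = 0.18 on log2 CPM), and Axin2 varied with Wnt4 (r = 0.70) more than with Wnt3 (r = 0.48) and against Lef1 (r = -0.62). Sp5 varied against Wnt9a (r = -0.75). Outside the pathway lists, the genes most like Axin2 were Kif7 (r = 0.92), Apmap (0.92) and Ubn1 (0.88). Those most like Sp5 were Srsf7 (0.95), Ajuba (0.94) and Irak3 (0.94), and those most like Wnt3 were Atg4a, Vwa2 and Prosc (0.89 each). These correlations are descriptions over 12 points that share pairs, clones and library depth.

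Between the clones, Wnt3, Dkk1 and Lef1 differed most among the 10 genes, and none was called. In GFP-negative cells, Wnt3 was lower in clone 10 than in clone 4 by a log2 difference of -1.49 (SE 0.45, 95% interval -2.47 to -0.51, edgeR adjusted p = 0.234), and in GFP-positive cells the difference was 0.20. Dkk1 was higher in clone 10 by 2.38 (SE 0.68, edgeR adjusted p = 0.209) in GFP-negative and 2.12 (SE 0.61, edgeR adjusted p = 0.113) in GFP-positive cells. Lef1 stood at -1.58 (SE 0.82, edgeR adjusted p = 0.477) and -1.16 (SE 0.82, edgeR adjusted p = 0.585), with clone 4 means of 11.6 ± 9.03 and 6.26 ± 3.63 CPM and clone 10 means of 3.39 ± 2.41 and 2.66 ± 1.79 CPM. Groups of the clones did not overlap for 2 of the 10 genes in GFP-negative cells (Wnt3 and Dkk1, against 15.0% of all genes) and for 2 in GFP-positive cells (Wnt4 and Dkk1, against 24.4%), and the same genes were found on effective library sizes, against 13.8% and 24.8%. edgeR called 0 of 10 in both gates, where 0.0461% and 1.11% of genes were called, with 2 and 1 at an unadjusted p under 0.05 (11.9% and 14.3% of all genes). DESeq2 also called 0 of 10 in both, where it called 2.76% and 5.88% of all genes. The clone contrasts use the same libraries as the gate contrasts. Labelled passages were 13 to 16 in replicates 2 and 3 of clone 4 and 17 to 20 in those of clone 10. In every contrast between the clones, clone and labelled passage therefore cannot be told apart in those replicates. These passage labels rise by 1 from sample to sample, so their accuracy is uncertain.

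In order of level, the group means of Wnt3 ran from clone 10 GFP-positive to clone 4 GFP-negative, clone 4 GFP-positive and clone 10 GFP-negative, and the step to the last was the single one beyond the spread of libraries. For Wnt4 that step was between clone 10 GFP-positive and clone 4 GFP-positive, and for Dkk1 between clone 10 GFP-positive and clone 10 GFP-negative. For the other 7 genes, Axin2 included, every neighbouring pair of groups overlapped.

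Few other genes of the pathway were called by edgeR. Over all libraries, edgeR called 0 genes of 8 further pathway lists in any of the contrasts, against 0.0% to 1.11% of all genes. Within pairs it called Fzd5 in clone 10 and Myc and Dkk2 for the mean of both clones, against 4.22% and 3.36% of all genes. DESeq2 within pairs called 10.8% and 9.45% of all genes there, and its calls over these lists were not counted. Fzd5, a Frizzled receptor, fell by 0.57 on the log2 scale in clone 10 (SE 0.13, edgeR adjusted p = 0.0472), from 79.6, 130 and 102 CPM in GFP-negative to 75.9, 89.5 and 60.1 CPM in GFP-positive libraries, and lay lower in all 3 pairs. It was 1 of 16 receptors and co-receptors tested, of which 11 had values above 0 and the median was 0.27, and 0.731% of all genes were called as lower. Among those not called were Fzd4, with a log2 change of 1.07 (edgeR adjusted p = 0.133), and Lrp6, with 0.29. The Fzd5 call was kept in 1 of 6 fits with a pair left out, with adjusted p-values of 0.0182 to 0.239.

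Of the 13 other Wnt ligands, 9 passed the filter. In clone 4 within pairs edgeR called 0 of them (0.119% of all genes), with 3 of 9 above 0 and a median of -0.18. Within pairs in clone 10 it also called 0 (4.22% of all genes), with 7 of 9 above 0 and a median of 0.39. Wnt10b stood at 1.64 at under 2 CPM in every library, Wnt7a at 1.26 and Wnt10a, which lies 6.2 kilobases from Wnt6, at 0.97. Wnt5b, a ligand of the beta-catenin-independent branch, had the opposite sign at -1.03 (edgeR adjusted p = 0.068), from 2.08, 3.53 and 3.10 CPM to 1.05, 2.32 and 1.28 CPM. Each clone 10 pair was lower for Wnt5b in GFP-positive cells, and each was higher for Wnt3 and Wnt9a. Of the 9 genes of the R-spondin module, which sets the number of Frizzled receptors at the cell surface, 8 were tested. In clone 10, 7 were above 0 with a median of 0.52, and edgeR called none, against the same 4.22% of all genes. Its member and target gene Znrf3 stood at 0.52 (edgeR adjusted p = 0.180).

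Of 23 other target genes, some of which (Znrf3, Tcf7 and others) also stand in another list, 22 were tested, and 14 had values above 0 in clone 10, with a median of 0.36. For the mean of both clones, 2.51% of all genes were called as higher and 0.85% as lower within pairs. Myc, the growth regulator, fell by 0.46 for the mean of both clones (SE 0.10, edgeR adjusted p = 0.0443). It had a lower GFP-positive level in 6 of 6 pairs, where 21.7% of all genes were lower in at least 5. The level of Myc differed widely between pairs, from 1.07 CPM in the clone 4 replicate 2 pair to 57.6 CPM in that of clone 10 replicate 2. Zcchc12 stood at 1.29 within pairs (SE 0.29, edgeR adjusted p = 0.052), with 25.3 CPM in the highest library and 0.938 CPM in the lowest. Of 17 secreted antagonists, 13 were tested and 6 were above 0 in clone 10. Dkk2, a relative of Dkk1, fell by 1.91 for the mean of both clones (SE 0.36, edgeR adjusted p = 0.0298), with 0.137, 2.66 and 1.82 CPM in clone 4 and 0.00, 2.18 and 7.69 CPM in clone 10 GFP-negative libraries, and at most 2.76 CPM in GFP-positive ones. The sum of the fibroblast markers given above was also highest in clone 10 GFP-negative replicate 3, the library with most Dkk2, and its part in this result was not tested. The Myc and Dkk2 calls were each kept in 1 of 6 fits with a pair left out, with adjusted p-values of 0.0276 to 0.177 and 0.00300 to 0.158. All 3 edgeR calls of the wider lists were kept only without clone 10 replicate 1.

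The transducers of the signal showed no change with the gate that edgeR called. The destruction complex and its partners had a median of 0.08 in clone 10 over 16 tested genes, with 10 above 0, and the 12 nuclear effectors had a median of -0.15, with 4 above 0. Within pairs edgeR called 0 genes of either list in both clones, against 0.119% of all genes in clone 4 and 4.22% in clone 10. Between the clones, Tcf7, a TCF/LEF factor and target gene, held 97.6 to 139 CPM in clone 4 GFP-negative and 92.1 to 134 CPM in clone 4 GFP-positive libraries and 54.8 to 70.3 and 59.8 to 66.9 CPM in those of clone 10, without overlap. Its differences were -0.76 (edgeR adjusted p = 0.159) and -0.81 (edgeR adjusted p = 0.058), which DESeq2 called (adjusted p = 0.0118 and 0.00176). Porcn, the enzyme that attaches the lipid that Wnt ligands need for secretion, held 60.7 to 124 and 60.1 to 106 CPM in clone 4 and 172 to 269 and 224 to 254 CPM in clone 10. Its differences were 1.28 (edgeR adjusted p = 0.170) and 1.45 (edgeR adjusted p = 0.056), and DESeq2 called them too (adjusted p = 0.0166 and 0.00208). Both genes were picked from their lists by smallest p. Of all tested genes, 15.0% did not overlap between the clones in GFP-negative cells and 24.4% in GFP-positive cells. DESeq2 called 2.76% and 5.88% of all genes in these contrasts.

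**Figure D4:**
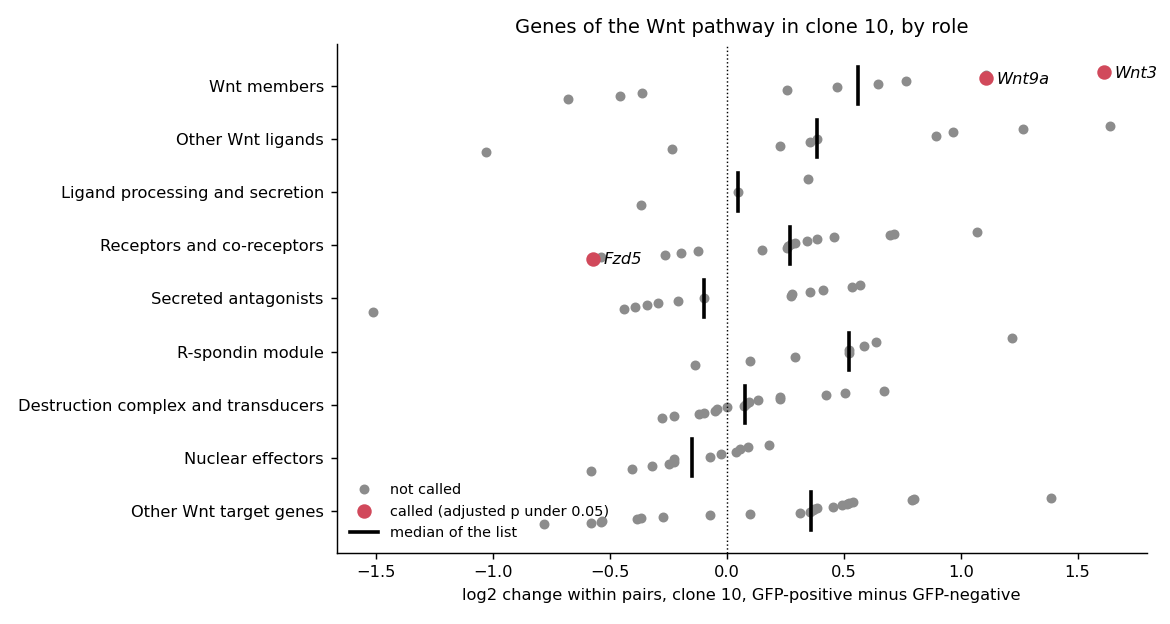
Log2 change within pairs in clone 10 for every tested gene of the Wnt lists, a point per gene, with a bar at the median of each list, red points for called genes and a dotted line at 0; Wnt members are the 10 genes described. Their median is 0.56, those of the other lists lie between -0.15 and 0.52, and the called genes are Wnt3, Wnt9a and Fzd5.

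Markers of the tissues in which Wnt signals act during gastrulation summed to far less than the embryonic stem cell markers. The summed level of the 8 measured primitive streak and mesoderm markers was 21.8 to 34.4 CPM in every library. Endoderm markers summed to 52.5 to 180 CPM, neural markers to 44.7 to 174 CPM and trophoblast markers to 109 to 365 CPM. Single genes, such as Lama1 (endoderm, median 69.9 CPM) and Tubb3 (neural, 54.2 CPM), made up much of a sum, so the sums do not rank these lineages. The embryonic stem cell sum was 5034 CPM or more throughout. Reads of a gene and of an overlapping antisense gene may not have been separated, since the strand setting is not given in the sources used here. Annotated antisense exons overlap those of Axin2 (Gm11670), Wnt7b (AU022754) and Lef1 (Gm43352).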

How the data were processed

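The authors deposited unnormalized whole-number read counts per gene. The submitters' processing notes name the mm10 build, STAR 2.3.0e, HTSeq 0.6.0, DESeq and DESeq2. For the annotation release and the strand setting, nothing is given in the sources used here. A deposited table per clone holds, per the file headers, the counts again (0 columns differed), a signal per library (counts over a size factor), log2 fold changes and their errors, a score (fold change over error) and raw and adjusted p-values. The authors' log2 changes were smaller than log2 ratios taken from their signal.

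The deposited counts were tested in R 4.3.3 by edgeR 4.0.16 (quasi-likelihood F test with robust shrinkage, TMM scaling, on limma 3.58.1). A gene was tested if 3 or more libraries reached the equivalent of 10 counts in a library of median size and its total was at least 15, as for 15179 genes but not for 7574. The planned fit took all 12 libraries with a term per group (8 residual degrees of freedom). Benjamini-Hochberg adjustment ran over all tested genes, and calls needed an adjusted p under 0.05. Replicate numbers in the labels pair the gates: in a clone, deviations from group means correlated at 0.548 to 0.822 for the 6 same-numbered pairs. They correlated at -0.541 to -0.228 for the other combinations of opposite gates in a clone. Deviations sum to 0 within a group of 3 libraries, which pulls these other values below 0. Libraries of different clones correlated at -0.448 to 0.683, the highest for GFP-positive clone 4 replicate 3 and clone 10 replicate 2. The fit within pairs holds each pair as a block (4 residual degrees of freedom). The biological coefficient of variation was 0.389 without and 0.175 with the block. DESeq2 1.42.0, other scaling and filters, passage as a covariate and leaving out each library or pair were the alternatives. Levels on effective library sizes in place of CPM were added after seeing the data.

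CPM is the count scaled by the library's total, and CPM per kilobase uses the union of exons in GENCODE M21 (21854 genes). Promoters are RefSeq's. The 10 genes and the pathway and marker lists were chosen with earlier results of these data known. All 10 genes were named. From each other pathway list, up to 3 genes with the smallest p for the gate over both clones were picked. The 2 with the smallest p between the clones were also picked. The other pathway genes described with values were taken from these picks and from the genes called by edgeR. Not all picks are described, and Cd44, Kremen1 and Gsk3b are among those left out. For Axin2, Sp5 and Wnt3 the 3 most correlated genes outside the lists, at a mean log2 CPM of 1 or more, were named, and predicted names were passed over. Gene levels are limited by counting error at 12968916 to 34258395 counts per library, which is largest for Dkk1.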

Additional observations from a re-analysis of the deposited data

How the results depend on the processing

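The number of genes called over the whole table moved with both the tool and the block. In clone 4 it was 0, against 33 with DESeq2, 18 with the replicate block and 182 with the block in DESeq2. In clone 10 it was 0, against 6 without a filter, 289 with DESeq2, 86 with passage, 641 with the block and 1582 with the block in DESeq2. For the mean of both clones it was 24, against 67, 286, 138, 510 and 1435 in the same order, and for the gate by clone contrast 0 against 64 with the block in DESeq2. Between the clones it was 7 in GFP-negative cells, against 4 without a filter, 418 with DESeq2 and 22 with passage, and 168 in GFP-positive cells, against 890 with DESeq2 and 376 with passage. With a library left out the counts ran from 0 to 0 in clone 4, 0 to 100 in clone 10, 0 to 101 for the mean, 0 to 0 for the gate by clone contrast, 0 to 19 in GFP-negative and 0 to 287 in GFP-positive cells between the clones. With a pair left out of the block they ran from 0 to 207, 132 to 657, 125 to 980 and 0 to 1 for the gate contrasts in that order. Apart from the calls given in the report, the block changed no call among the 10 genes. The sign changed for clone 4 Wnt3 with the block (0.013) and with the block in DESeq2 (0.022), and for the mean of Wnt3a (-0.038 and -0.046). For the gate by clone contrast of Sp5 it changed with DESeq2's size factors in edgeR (-0.014), no filter (-0.023), DESeq2 (-0.0075), passage (-0.17), the block (-0.25) and the block in DESeq2 (-0.29). With passage as a covariate it changed between the clones for Axin2 (-0.053) and Sp5 (-0.11) in GFP-negative cells and for Wnt3 (-0.086) and Sp5 (-0.28) in GFP-positive cells. The cause was not tested. With a library left out, signs changed for these log2 values. In clone 4 they ran from -0.17 to 0.41 for Axin2, -1.74 to 0.86 for Sp5, -0.44 to 0.16 for Wnt3 (-0.31 to 0.24 with the block and a pair left out), -0.77 to 1.45 for Wnt3a, -0.047 to 0.69 for Wnt4 (-0.10 to 1.02 with the block), -0.35 to 1.14 for Wnt6 and -0.10 to 0.98 for Wnt7b. In clone 10 they ran from -1.23 to 0.073 for Lef1 and -1.79 to 0.44 for Sp5, and for the mean from -1.24 to 0.090 for Sp5 and -0.61 to 0.50 for Wnt3a (-0.22 to 0.05 with the block). For the gate by clone contrast they ran from -0.96 to 0.091 for Dkk1 (-1.18 to 0.12 with the block), -0.40 to 0.96 for Lef1, -1.53 to 1.12 for Sp5 (-0.60 to 0.15 with the block), -1.91 to 0.32 for Wnt3a, -0.46 to 1.03 for Wnt6 and -0.76 to 0.32 for Wnt7b (-0.46 to 0.17 with the block). Between the clones they ran from -0.24 to 0.35 for Axin2, -0.48 to 2.18 for Sp5, -0.31 to 0.56 for Wnt4 and -0.16 to 0.86 for Wnt6 in GFP-negative cells, and from -0.47 to 1.74 for Sp5, -1.15 to 0.74 for Wnt3a, -0.066 to 1.00 for Wnt7b and -0.11 to 0.51 for Wnt9a in GFP-positive cells. Wnt3 and Wnt9a kept a positive change in clone 10 under every alternative run. Counting error limits Dkk1, which the stricter filter left out.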
